A study of Mus musculus with 32 samples.

Results

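The exposure by genotype interaction in the cerebellar vermis is the effect of prenatal ethanol in Acss2 knockouts (KO) minus the effect of prenatal ethanol in wild types (WT). It was measured on polyA RNA from 16 vermis libraries, out of 32 libraries in the series, and the other 16 came from the dorsal hippocampus of the same 16 mice. All mice were C57BL/6J, and the 4 groups were WT after saline, WT after ethanol, KO after saline and KO after ethanol, each with 2 males (M1, M3) and 2 females (F1, F3). Dams spent 5 nights with a stud, and from the end of the first night they had a daily intraperitoneal injection until delivery, either 3 g per kg ethanol (20% by volume in saline) or the same volume of saline. Pups were weaned at day 21 and tissue was taken at postnatal day 40 to 50, so the libraries describe young animals weeks after the last exposure. The labels call the mice ACSS2 KO without naming a tissue-specific driver, and they give no litter, cage or time of day, so adjusted p-values describe the spread between these mice. A negative interaction means that a gene was lower after ethanol in KO than its response in WT would give, and a positive one means the reverse. Of 22441 genes tested, 24 passed the interaction at an adjusted p of at most 0.05 (0.107% of genes), 3 of them positive (0.0134%) and 21 negative (0.0936%).

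ACSS2 makes acetyl-CoA from acetate, a product of ethanol breakdown, and acetyl-CoA is the donor for histone acetylation. Glucocorticoids, the adrenal stress hormones, enter cells and bind a receptor that switches genes on at response elements in DNA. The circadian clock is a feedback loop in which CLOCK and BMAL1 act at E-boxes to drive Per, Cry, Nr1d and Dbp genes, and the PER and CRY proteins then repress them. The cerebellum carries this clock in its neurons and glia, and adrenal glucocorticoids and the clock act on several of the same genes, Per1 among them.

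Levels below are in CPM, counts divided by library size after TMM normalization, where 1 CPM equals 22.9 to 74.9 counts depending on the library. Total counts ran from 23085928 in KO ethanol F3 to 73803508 in WT saline F3. Acss2 was lower in every KO library (16.7 ± 3.45 CPM, SD, n = 8, highest 20.4) than in every WT library (61.5 ± 4.76 CPM, n = 8, lowest 55.9), a log2 difference of -1.90 (2-sided exact permutation test over 12870 splits, p = 0.000155, the smallest it can give). Its interaction was log2 -0.21 (adjusted p = 0.703). Both defining neurons of the labelled tissue were present in every library, with Purkinje cell markers averaging 7.18 to 8.67 and granule neuron markers 7.54 to 9.17 log2 CPM. KO ethanol F1 and M3 had the highest scores on the first principal component (30.4% of the variance, 99.1 and 65.7, with 26.5 the next), and WT ethanol M1 (-70.7), KO ethanol F3 (-53.2) and KO saline F1 (-47.3) the lowest. Counts without F1 and M3 are given with the cell type markers, and counts without each single library after them. Over all genes 2524 (11.2%) had an unadjusted p under 0.05 for the interaction, and 54% had a positive interaction.

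Promoter sequences of 6 of the 24 genes are shown, chosen after the motif search as examples among clock genes (Ciart, Per1), glucocorticoid-responsive genes and metallothioneins (Sgk1, Mt2, Mt1), with Klf15, which is in none of the lists, for its E-boxes. They are the 250 bases before the annotated transcription start, from RefSeq on GRCm38.p6, written 5′ to 3′ on the strand of the gene. Capitals mark the named motif, found by letters on either strand. For Ciart (chr3:95882229-95882478, minus strand), Per1 (chr11:69098699-69098948, plus) and Klf15 (chr6:90462326-90462575, plus) the capitals mark the E-box CACGTG.
Ciart: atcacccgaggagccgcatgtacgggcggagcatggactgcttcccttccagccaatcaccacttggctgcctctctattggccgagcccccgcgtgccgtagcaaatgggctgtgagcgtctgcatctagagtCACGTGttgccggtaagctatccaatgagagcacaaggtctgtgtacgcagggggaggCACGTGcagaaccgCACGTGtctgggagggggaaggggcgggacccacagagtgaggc
Per1: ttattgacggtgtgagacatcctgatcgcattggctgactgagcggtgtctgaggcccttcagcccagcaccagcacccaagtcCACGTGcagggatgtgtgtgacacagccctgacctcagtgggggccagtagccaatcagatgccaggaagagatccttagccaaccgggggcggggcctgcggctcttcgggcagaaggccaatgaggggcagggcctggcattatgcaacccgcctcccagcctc
Klf15: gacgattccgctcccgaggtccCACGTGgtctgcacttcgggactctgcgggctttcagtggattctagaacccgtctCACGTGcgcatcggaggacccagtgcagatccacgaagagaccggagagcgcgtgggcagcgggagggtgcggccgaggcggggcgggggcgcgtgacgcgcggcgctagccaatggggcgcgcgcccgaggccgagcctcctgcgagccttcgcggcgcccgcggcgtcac
For Sgk1 (chr10:21993640-21993889, plus, 1 of 6 annotated starts) they mark the full palindrome of the glucocorticoid response element, AGAACA and TGTTCT with any 3 bases between.
Sgk1: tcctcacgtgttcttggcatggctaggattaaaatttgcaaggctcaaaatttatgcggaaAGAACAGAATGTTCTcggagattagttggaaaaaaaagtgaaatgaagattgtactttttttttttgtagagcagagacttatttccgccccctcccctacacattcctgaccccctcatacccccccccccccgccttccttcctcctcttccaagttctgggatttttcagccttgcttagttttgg
For Mt2 (chr8:94172368-94172617, plus) and Mt1 (chr8:94178839-94179088, plus) they mark the metal response element, TGCGCNC or TGCACNC.
Mt2: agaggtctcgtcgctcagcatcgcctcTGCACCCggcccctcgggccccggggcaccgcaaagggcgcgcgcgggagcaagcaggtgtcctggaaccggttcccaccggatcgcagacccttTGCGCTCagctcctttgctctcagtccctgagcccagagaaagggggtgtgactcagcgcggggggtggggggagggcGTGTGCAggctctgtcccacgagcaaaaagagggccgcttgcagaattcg
Mt1: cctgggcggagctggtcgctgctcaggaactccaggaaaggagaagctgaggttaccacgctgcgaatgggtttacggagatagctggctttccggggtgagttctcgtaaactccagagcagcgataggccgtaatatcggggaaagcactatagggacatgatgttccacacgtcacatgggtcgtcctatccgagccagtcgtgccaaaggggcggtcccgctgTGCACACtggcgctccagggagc

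Of the 24 genes, 23 had a promoter in that table. The E-box was found in 5 of the 23 (Ciart with 3 matches, Klf15 with 2, and Frmd6, Sgk1 and Per1), and 6.86% of 27025 genes with a promoter of this length hold it. The full glucocorticoid palindrome was found in Sgk1 alone (0.0111% of all genes), and its relaxed form, GNACA and TGTNC with 3 bases between, which overlaps it, in Map3k6, Sgk1 and Mt1 (0.44%). The metal response element was found in 12 of the 23 (23.8%), including Mt2 with 3 matches and Mt1 with 1. The D-box TTATGNAA was found in Per1 alone (3.63%), and the cyclic AMP response element TGACGTCA in 0 of the 23 (1.77%). A match is a description of letters in this window, and binding was not measured.

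The first question was which genes responded oppositely in the 2 genotypes. A gene was placed in this class where it passed the interaction and both exposure tests, with opposite signs. Mt2 was the gene that met all 3 conditions. In the exposure tests themselves 1 of 22441 genes passed in WT (Mt2, 0.00446%, with 1194 genes at an unadjusted p under 0.05) and 20 passed in KO (0.0891%, 5 higher, 0.0223%, and 15 lower, 0.0668%, with 2993 at an unadjusted p under 0.05).

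Mt2 encodes a metallothionein, a small cysteine-rich protein that binds zinc and copper and is induced by metals and by glucocorticoids. Its first listed exon lies on the plus strand of chromosome 8 from 94899292 to 94899503 in GRCm39, the build of the deposited table. In WT after saline the libraries M1, M3, F1 and F3 measured 81.0, 68.7, 76.6 and 84.8 CPM, and after ethanol 123, 118, 141 and 112 CPM. In KO after saline they measured 99.6, 121, 137 and 125 CPM, and after ethanol 71.4, 82.5, 89.7 and 86.3 CPM. Every exposed WT library was above every saline WT library, and every exposed KO library was below every saline KO library. The rise in WT was log2 0.67 ± 0.086 (SE, adjusted p = 0.0312), the fall in KO was log2 -0.55 ± 0.086 (adjusted p = 0.0338), and the interaction was log2 -1.21 ± 0.12 (adjusted p = 0.000681). The KO saline mean, 120.6 ± 15.6 CPM (n = 4), was close to the exposed WT mean of 123.5 ± 12.2 CPM, and the KO ethanol mean, 82.5 ± 7.92 CPM, was close to the saline WT mean of 77.8 ± 6.91 CPM. The interaction of Mt2 passed under all 27 other settings tried. Both single exposure tests lay near the threshold, and the opposite class held no gene when WT saline M3, F1 or F3, WT ethanol M1, M3 or F1, KO saline M3, F1 or F3, or KO ethanol M1 or M3 was left out. Without KO ethanol M3 and F1 together it held Frmd6 and Tsc22d3. With DESeq2 the class held 4 genes, Mt2, Frmd6, Spred2 and Tsc22d3.

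Mt1, the neighbouring metallothionein gene on the same strand, showed a smaller interaction of log2 -0.61 ± 0.11 (adjusted p = 0.0384). It measured 125, 119, 116 and 126 CPM in WT after saline and 155, 151, 183 and 151 CPM in WT after ethanol. In KO it measured 142, 169, 178 and 168 CPM after saline and 139.5, 138, 155 and 130.4 CPM after ethanol, so the KO groups overlapped while the WT groups did not. Neither exposure test of Mt1 passed (log2 0.39 in WT, adjusted p = 0.399, and log2 -0.22 in KO, adjusted p = 0.334). Mt1 and Mt2 are close paralogs, and reads that both could take cannot be told apart in the counts. Mt3, the brain metallothionein, had an interaction of log2 0.03 (adjusted p = 0.929). Of 22 metallothioneins and antioxidant enzymes tested, Mt2 and Mt1 passed, both lower, and the median interaction of the list was 0.03, as it was over all genes (0.03).

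**Figure D1:**
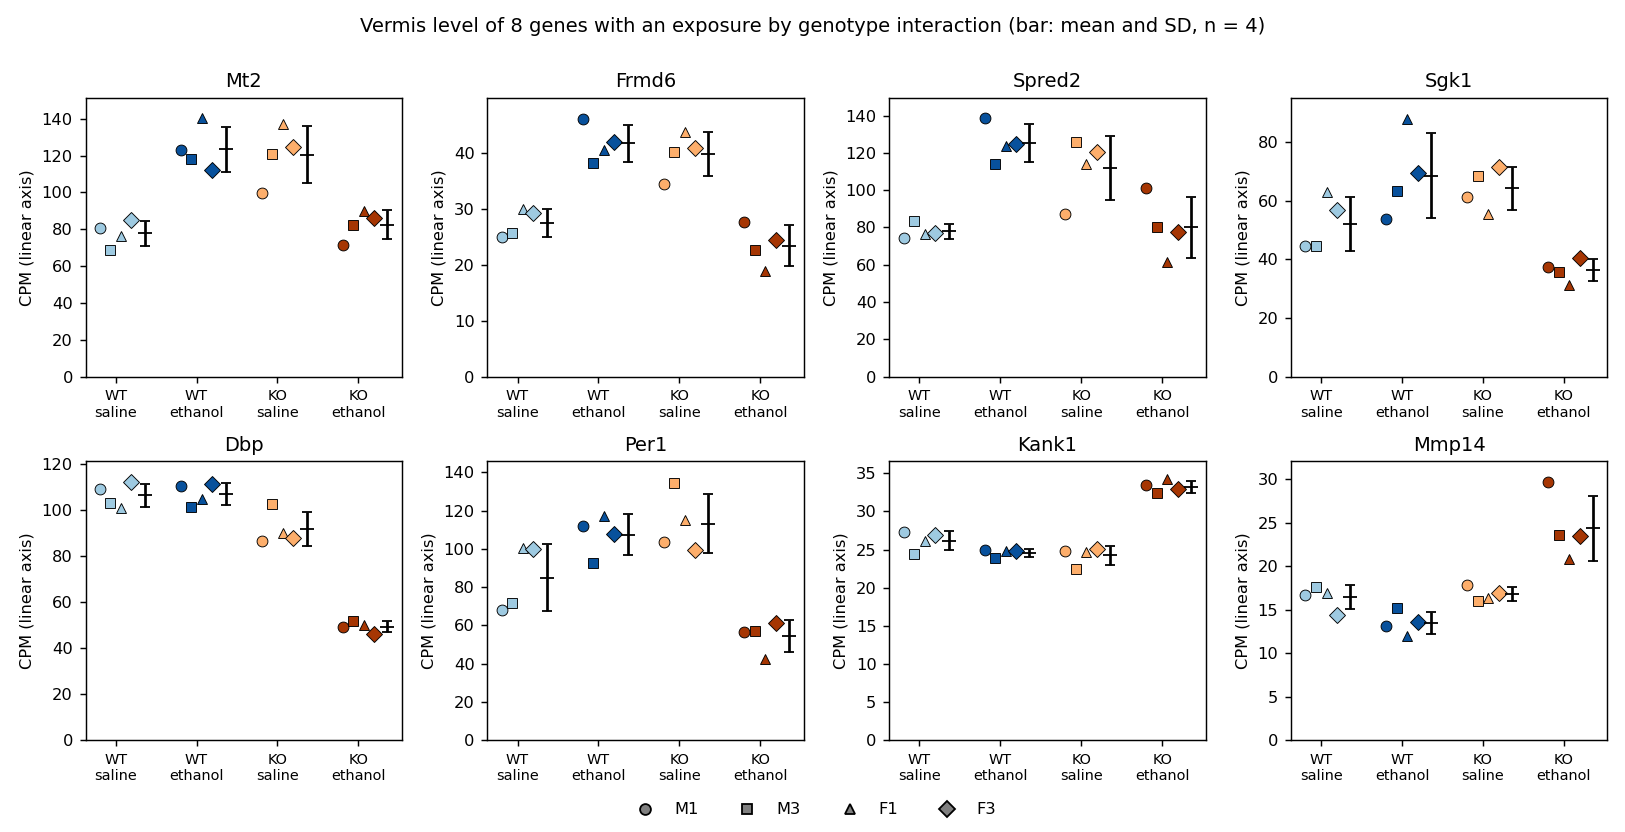
Level of 8 genes in the 16 vermis libraries, in CPM on linear axes that start at 0, by group (x axis). Symbols are single libraries by label, and the bar beside each group is the mean and SD (n = 4). In Dbp and Kank1 the KO ethanol libraries sit apart from the other 12, while in Mt2, Frmd6 and Spred2 WT ethanol and KO saline are both high.

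The second question was which genes passed the exposure test in 1 genotype and not in the other. Of the 24 genes, 12 passed the exposure test in KO and not in WT, 0 passed in WT and not in KO, and 11 passed neither. The WT class stood at 0 in the main edgeR fit, at 0 to 2 in other edgeR fits, and at 11 with DESeq2. Mt2 moved into it with brainstem marker level as a covariate and without KO ethanol M3 and F1 together. It also did so without KO saline M3 or F1, or without KO ethanol M1 or M3. An unadjusted p under 0.05 in WT was reached by 19 of the 24 (1194 of all 22441 genes). All 24 had an unadjusted p under 0.05 in KO (2993 of all 22441 genes). Of the 12 genes that passed in KO and not in WT, 7 had an unadjusted p under 0.05 in WT (Frmd6, Map3k6, Sgk1, Per1, Klf2, Mmp14 and Nfkbia). The interaction that selected these genes contains both exposure effects, which favours small p-values in each genotype, so these counts are descriptions. Missing the adjusted threshold in WT does not show that the 12 did not respond there. The estimated effects had opposite signs in all 24, with 21 genes positive in WT and negative in KO and 3 the reverse (Kank1, Mmp14 and Adamts1). The WT intervals of Dbp, Kank1, Ciart, Rasl11a and Slc7a5 included 0, so a WT response in either direction was not shown for them. Dbp counts as positive in WT at log2 0.01, and its effects had opposite signs in 21 of 27 other settings. Over all genes tested 55.6% had opposite signs, and since the interaction is the difference of these 2 effects, the count in the 24 is a description. Among the 21 negative genes the fold of ethanol against saline ran from 0.402 to 0.859 in KO and from 1.01 to 1.61 in WT.

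**Figure D2:**
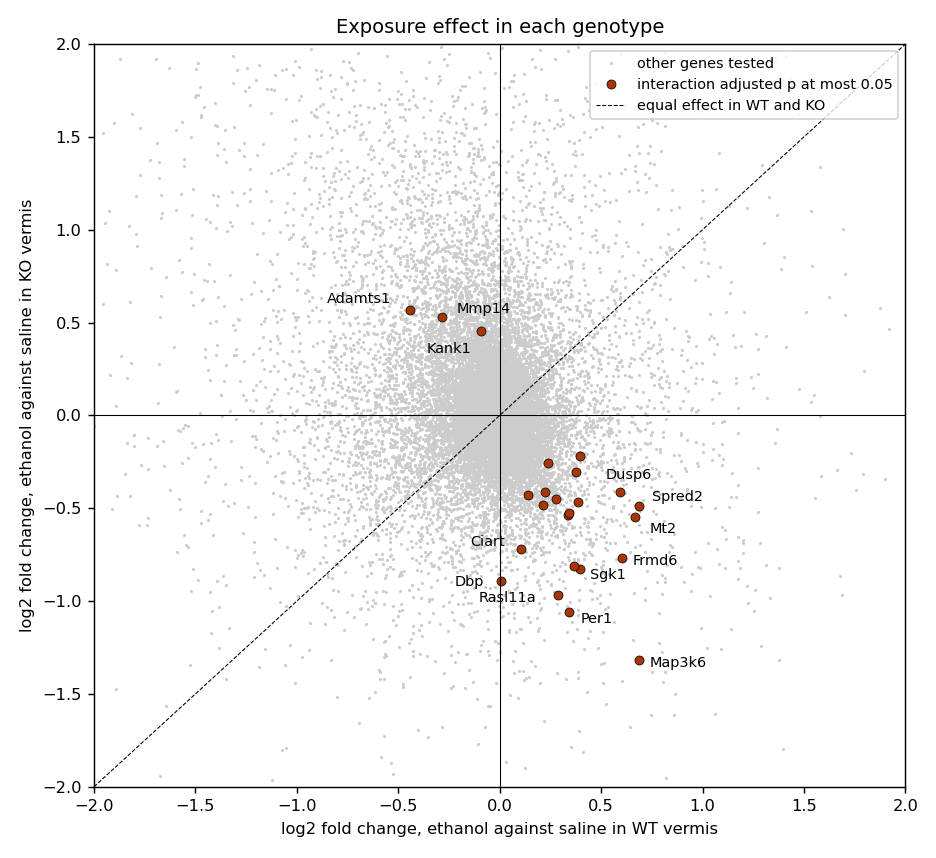
Log2 fold change of ethanol against saline in WT vermis (x axis) and in KO vermis (y axis), for each gene tested. Grey points are the other genes, brown points the 24 that passed the interaction, and the dashed line marks equal effects. A total of 214 genes lie beyond 2 on either axis and are not drawn. Dbp sits on the vertical line of no WT effect, and the other negative genes lie at the lower right.

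The clock genes Dbp and Ciart fell in KO, and their WT intervals included 0. Dbp encodes a transcription factor driven by the clock that in turn acts at D-boxes. Its first listed exon lies on the plus strand of chromosome 7 from 45354512 to 45355186 (GRCm39). It measured 109, 103, 101.2 and 112 CPM in WT after saline and 110.4, 101.5, 105 and 111 CPM in WT after ethanol. In KO it measured 86.9, 103, 90.1 and 87.9 CPM after saline and 49.4, 52.1, 50.3 and 46.1 CPM after ethanol. The 4 exposed KO libraries lay far below the other 12, which overlapped across groups. Dbp fell by 0.89 on the log2 scale in KO (SE 0.062, adjusted p = 8.72e-06), to 0.539 of the saline level. In WT its log2 change was 0.01, with a 95% interval from -0.12 to 0.14. The interaction was log2 -0.90 ± 0.086 (adjusted p = 0.000681), and it passed under all 27 other settings.

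Ciart encodes a repressor of CLOCK and BMAL1. It measured 15.7, 15.5, 14.0 and 15.2 CPM in WT after saline and 17.1, 15.2, 16.03 and 16.6 CPM in WT after ethanol. In KO it measured 12.9, 14.1, 11.4 and 12.9 CPM after saline and 8.88, 8.06, 8.18 and 5.97 CPM after ethanol. As in Dbp, the exposed KO libraries lay below all others. It fell by 0.72 on the log2 scale in KO (adjusted p = 0.0164), changed by log2 0.11 in WT (95% interval -0.10 to 0.31), and had an interaction of log2 -0.83 ± 0.14 (adjusted p = 0.0288).

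Per1, a core repressor of the clock and a glucocorticoid target, differed from Dbp in its saline groups. It measured 67.9, 71.7, 100.5 and 99.8 CPM in WT after saline, where both females were above both males. It measured 112, 92.5, 117 and 108 CPM in WT after ethanol, 104, 134, 115 and 99.6 CPM in KO after saline, and 56.5, 57.3, 42.3 and 61.4 CPM in KO after ethanol. The KO groups did not overlap and the WT groups did. Its fall in KO was log2 -1.06 ± 0.15 (adjusted p = 0.0237), to 0.48 of the saline level, its change in WT log2 0.34 ± 0.15 (adjusted p = 0.918), and its interaction log2 -1.40 ± 0.21 (adjusted p = 0.0275).

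Of 20 clock genes tested, these 3 passed the interaction, all lower (1 to 5 genes with a library left out, Dbp among them each time), where 0.0936% of all genes were called lower. Of the 20, 15 were negative, while 54% of all genes were positive. The median was log2 -0.36 against 0.03 over all genes. In the KO exposure test 5 of the 20 fell (0.0668% of all genes) and 0 rose. The other 2 that fell were the REV-ERB repressors, Nr1d1 (135.5 ± 11.9 CPM in KO after saline and 84.3 ± 11.1 after ethanol, log2 -0.69, adjusted p = 0.0233) and Nr1d2 (192.8 ± 10.3 and 149.1 ± 15.3 CPM, log2 -0.37, adjusted p = 0.0339). Their WT changes were log2 0.01 and 0.10, and their interactions, log2 -0.69 and -0.47, missed the threshold (adjusted p = 0.076 and 0.058). The activators of the loop had values near 0, with an interaction of log2 -0.09 for Bmal1 and 0.06 for Clock (adjusted p = 0.88 and 0.807). Per2, the paralog of Per1, had log2 0.61 in WT and -0.58 in KO, but its KO ethanol libraries were spread (24.1 ± 12.1 CPM) and the interaction did not pass (log2 -1.19, adjusted p = 0.29). Time of death within the day is not given in the labels, and its part in the clock values was not tested.

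In the main edgeR fit, genes known to respond to glucocorticoids gave the most calls of the 40 lists, without regard to list size. Of 23 tested, 7 passed the interaction and all 7 were lower (Mt2, Map3k6, Sgk1, Per1, Nfkbia, Tsc22d3 and Mt1), where 0.0936% of all genes were called lower. Of the 23, 19 were negative, while 54% of all genes were positive. The median of the list was log2 -0.66 for the interaction, 0.38 in WT and -0.30 in KO, against 0.03, -0.01 and 0.00 over all genes. The list was fixed with earlier results of these data known, so its count, rank and direction are descriptions. DESeq2 called 11 of these 23 genes and 10 of the 20 clock genes. In edgeR with 1 library left out the glucocorticoid count ran from 1 to 10. It was 1 (Mt2) without WT saline M1 or M3, 2 without KO saline M3, 3 without WT saline F3, WT ethanol F1 or KO saline F3, and 4 without WT saline F1 or WT ethanol M1, and all of these were lower. Without WT saline M1 or M3 the clock list also held 1 call (Dbp).

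Map3k6 encodes a stress-activated kinase and had the largest fitted interaction of the 24. It measured 1.49, 1.44, 1.57 and 1.68 CPM in WT after saline and 2.38, 2.42, 2.89 and 2.24 CPM in WT after ethanol. In KO it measured 1.44, 2.73, 1.91 and 2.92 CPM after saline and 0.878, 0.89, 1.01 and 0.785 CPM after ethanol. Neither pair of groups overlapped, and the KO saline libraries were the most spread. Its log2 change was 0.68 ± 0.19 in WT (adjusted p = 0.904) and -1.32 ± 0.20 in KO (adjusted p = 0.0306), and the interaction was log2 -2.00 ± 0.28 (adjusted p = 0.0164). The call was lost without WT saline M1 (adjusted p = 0.0548) and without WT saline M3 (0.0651).

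Sgk1 encodes a kinase that glucocorticoids and mineralocorticoids induce and that acts on ion channels and transporters. It measured 44.5, 44.5, 62.8 and 56.9 CPM in WT after saline and 53.7, 63.4, 87.7 and 69.4 CPM in WT after ethanol, with an overlap. In KO it measured 61.4, 68.3, 55.4 and 71.5 CPM after saline and 37.3, 35.8, 31.3 and 40.4 CPM after ethanol, with none. It fell by 0.83 on the log2 scale in KO (adjusted p = 0.0338), changed by log2 0.39 in WT (adjusted p = 0.904), and had an interaction of log2 -1.22 ± 0.19 (adjusted p = 0.0275).

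Nfkbia encodes the inhibitor that holds NF-kappaB in the cytoplasm. It measured 20.7 ± 1.02 CPM and 24.1 ± 3.18 CPM in WT after saline and ethanol, and 25.3 ± 1.11 and 18.1 ± 1.00 CPM in KO, with an interaction of log2 -0.70 ± 0.11 (adjusted p = 0.0288) and a fall in KO of log2 -0.48 (adjusted p = 0.0339). Tsc22d3 encodes GILZ, an anti-inflammatory protein induced by the glucocorticoid receptor. It ran from 71.7 to 83.7 and from 94.3 to 114 CPM in WT and from 93.8 to 99.8 and 68.1 to 93.82 CPM in KO after saline and ethanol (interaction log2 -0.68 ± 0.11, adjusted p = 0.0326), and neither exposure test passed. Klf15, a metabolic transcription factor that the receptor also induces and that the list did not hold, measured 20.6 ± 1.34 and 24.9 ± 1.18 CPM in WT and 22.3 ± 2.95 and 16.3 ± 1.17 CPM in KO (log2 -0.73 ± 0.12, adjusted p = 0.0288).

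The next genes of the glucocorticoid list lay just outside the threshold. Cdkn1a, a cell cycle inhibitor, measured 16.6 ± 0.916 and 25.4 ± 2.35 CPM in WT and 26.6 ± 4.74 and 19.0 ± 4.28 CPM in KO (log2 -1.09, adjusted p = 0.0555). Klf9 had log2 -0.58 (adjusted p = 0.0617) and Hif3a, a repressor of hypoxia signalling, log2 -2.36 ± 0.47 (adjusted p = 0.0868). Ddit4, an inhibitor of mTORC1, fell in KO (log2 -0.45, adjusted p = 0.0339) and changed by log2 -0.05 in WT, but its interaction did not pass (log2 -0.39, adjusted p = 0.228). Fkbp5, a feedback chaperone of the receptor and a common index of its activity, had an interaction of log2 -0.25 ± 0.41 (adjusted p = 0.814). Nr3c1, the receptor itself, stood at log2 -0.09 (adjusted p = 0.815).

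**Figure D3:**
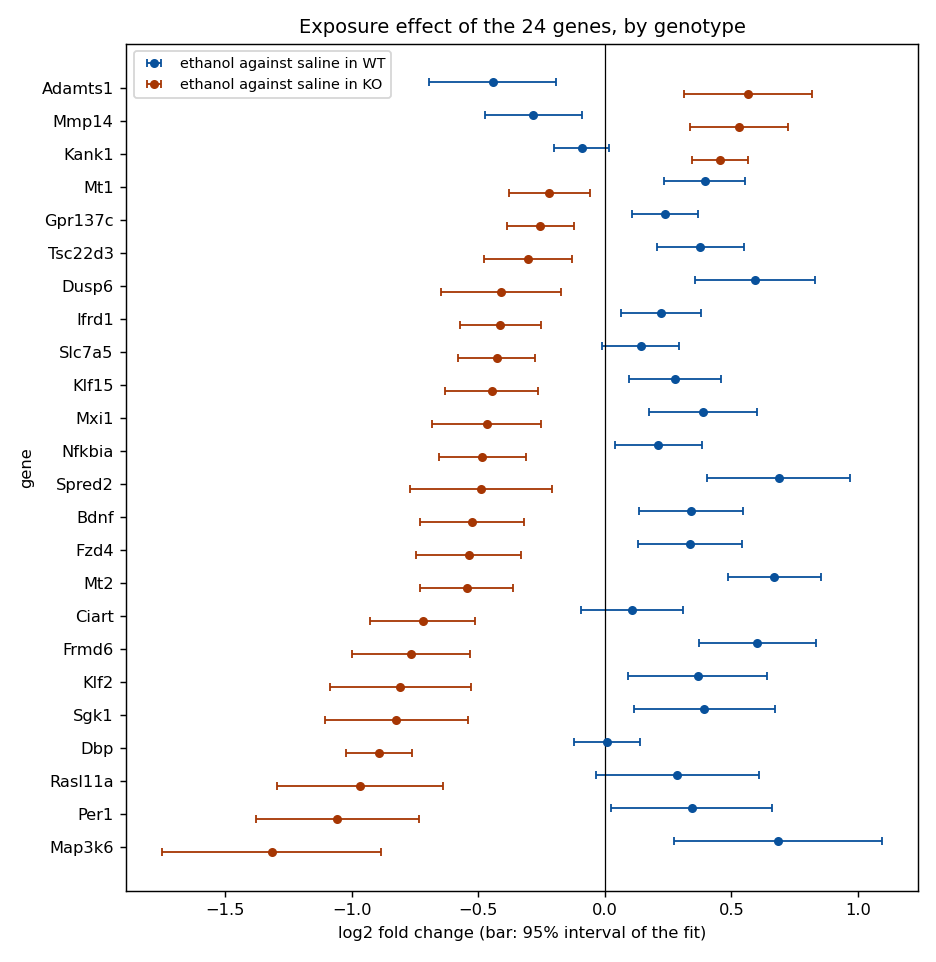
Log2 fold change of ethanol against saline in WT (blue) and KO (brown) for the 24 genes that passed the interaction, ordered by the KO effect, with 95% intervals of the fit. The intervals of the 2 genotypes do not overlap for any of the 24, and Dbp, Kank1, Ciart, Rasl11a and Slc7a5 have WT intervals that include 0.

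In Spred2 and Dusp6, as in Mt2, Mt1 and Tsc22d3, the estimated WT effect was larger in size than the KO effect. Spred2 encodes an inhibitor of the RAS to ERK pathway. It measured 74.2, 83.5, 76.5 and 77.2 CPM in WT after saline and 139, 114, 123.5 and 125 CPM in WT after ethanol, with no overlap. In KO it measured 87.0, 126, 114 and 120.4 CPM after saline and 101.4, 80.1, 61.6 and 77.3 CPM after ethanol, where M1 of each group made them overlap. Dusp6 encodes a phosphatase that inactivates ERK and is itself induced by ERK. It measured 15.1, 16.1, 15.4 and 17.2 CPM in WT after saline and 22.1, 27.9, 20.7 and 25.7 CPM in WT after ethanol, and in KO 18.7, 23.0, 20.95 and 25.4 CPM after saline and 18.9, 16.1, 15.5 and 15.6 CPM after ethanol. In both genes the exposed WT libraries lay above all saline WT libraries. The WT effects were log2 0.69 ± 0.13 and 0.59 ± 0.11 (adjusted p = 0.399 for both), the KO effects -0.49 ± 0.13 and -0.41 ± 0.11 (adjusted p = 0.238 and 0.237), and the interactions -1.18 ± 0.19 and -1.0 ± 0.16 (adjusted p = 0.0288 and 0.0275).

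Bdnf encodes the neurotrophin that activates TrkB. It measured 20.98, 17.8, 19.0 and 24.2 CPM in WT after saline, 27.5, 25.9, 25.9 and 24.4 CPM in WT after ethanol, 24.6, 29.3, 29.7 and 27.3 CPM in KO after saline and 17.4, 21.02, 20.7 and 17.9 CPM in KO after ethanol. The groups did not overlap in either genotype, though the closest WT libraries were 24.2 and 24.4 CPM. Its interaction was log2 -0.87 ± 0.14 (adjusted p = 0.0275), and neither exposure test passed. Klf2, a transcription factor of endothelium and activated cells, fell in KO from 12.3 ± 1.28 to 7.16 ± 1.40 CPM (log2 -0.81, adjusted p = 0.0338), and in WT it measured 8.18 ± 1.16 and 10.5 ± 1.52 CPM (interaction log2 -1.18 ± 0.18, adjusted p = 0.0275).

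Of 36 activity-regulated genes tested, Dusp6, Klf2 and Bdnf passed, all lower (0.0936% of all genes), and 12 had an unadjusted p under 0.05 (11.2% of all genes). Of the 36, 20 were negative, while 54% of all genes were positive, and the median was log2 -0.06. In KO 25 of the 36 had a negative exposure effect, with a median of log2 -0.21. DESeq2 also called Nr4a3 and Trib1 lower. The immediate early genes Fos, Egr1 and Arc, which neurons induce within minutes of firing, had positive interactions of log2 0.32, 0.44 and 0.55 that did not pass (adjusted p = 0.793, 0.607 and 0.641). Without KO ethanol M3 and F1 the median of this list was -0.44, and without WT saline M3 it was -0.30. The 3 calls fell to 0 without WT saline M1, M3 or F1 or KO saline M3, and to 1 without WT ethanol F1, KO saline F3 or KO ethanol M1.

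Frmd6 encodes a FERM-domain protein linked to Hippo signalling, and with Dbp and Mt2 it was 1 of 3 genes that passed under all 27 other settings. It measured 25.1, 25.7, 30 and 29.3 CPM in WT after saline, 46.2, 38.2, 40.6 and 42.0 CPM in WT after ethanol, 34.6, 40.2, 43.9 and 40.8 CPM in KO after saline and 27.7, 22.7, 18.9 and 24.5 CPM in KO after ethanol. The exposed libraries lay above all saline libraries in WT and below them all in KO. The KO fall passed (log2 -0.77 ± 0.11, adjusted p = 0.0233), the WT effect did not (log2 0.60 ± 0.11, adjusted p = 0.399), and the interaction was log2 -1.37 ± 0.15 (adjusted p = 0.00191).

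The 3 genes with a positive interaction act on the cytoskeleton or the extracellular matrix. Kank1 encodes an adaptor between focal adhesions and the cytoskeleton. It measured 27.2, 24.5, 26.1 and 27.0 CPM in WT after saline, 24.9, 23.9, 24.7 and 24.8 CPM in WT after ethanol, 24.9, 22.4, 24.7 and 25.0 CPM in KO after saline and 33.4, 32.4, 34.2 and 33.0 CPM in KO after ethanol. The 4 exposed KO libraries lay above the other 12, as the reverse of Dbp. Kank1 rose in KO by log2 0.45 ± 0.052 (adjusted p = 0.00317), changed by log2 -0.09 in WT (95% interval -0.20 to 0.02), and had an interaction of log2 0.55 ± 0.073 (adjusted p = 0.0114). Its call was lost without WT saline M1 (adjusted p = 0.0548) and without WT ethanol F1 (0.0544).

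Mmp14, a membrane-bound metalloproteinase, measured 16.8, 17.6, 16.9 and 14.4 CPM in WT after saline, 13.2, 15.2, 12.0 and 13.6 CPM in WT after ethanol, 17.9, 16.1, 16.4 and 16.9 CPM in KO after saline and 29.7, 23.6, 20.8 and 23.5 CPM in KO after ethanol. It rose in KO (log2 0.53, adjusted p = 0.0372) and had an interaction of log2 0.81 ± 0.13 (adjusted p = 0.0275). Adamts1, a secreted protease of matrix proteoglycans, measured 26.7 ± 3.76 and 19.6 ± 2.08 CPM in WT and 20.8 ± 1.89 and 31.0 ± 5.67 CPM in KO. Its groups did not overlap in either genotype, its interaction was log2 1.01 ± 0.17 (adjusted p = 0.0288), and neither exposure test passed (log2 -0.44 in WT and 0.57 in KO, adjusted p = 0.904 and 0.111).

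The remaining 6 genes were all negative. Fzd4, the receptor for norrin and Wnt ligands in vessels, measured 17.3 ± 2.08 and 21.8 ± 1.53 CPM in WT and 20.0 ± 1.53 and 13.7 ± 1.53 CPM in KO (log2 -0.87, adjusted p = 0.0275). Mxi1, an antagonist of MYC, measured 88.1 ± 3.58 and 115 ± 11.3 CPM in WT and 105 ± 10.5 and 75.7 ± 10.3 CPM in KO (log2 -0.86, adjusted p = 0.0288). Neither exposure test passed for these 2 genes. The other 4, Slc7a5, Rasl11a, Ifrd1 and Gpr137c, lie outside the rule for named genes, like Tsc22d3, and were named after their values were seen. Slc7a5, the transporter of large neutral amino acids, fell in KO from 106 ± 6.06 to 79.1 ± 9.91 CPM (log2 -0.43, adjusted p = 0.0339), and Rasl11a, a small GTPase of the Ras family, from 5.79 ± 0.39 to 2.97 ± 0.614 CPM (log2 -0.97, adjusted p = 0.0338). Their interactions were log2 -0.57 and -1.25 (adjusted p = 0.0459 and 0.0384). Ifrd1, a transcriptional coregulator, had log2 -0.64 (adjusted p = 0.0288), and Gpr137c had log2 -0.49 (adjusted p = 0.0459). Gpr137c and Slc7a5 were the last inside the threshold, and Bcl6 (log2 -1.33), Gadd45a (log2 0.70) and Lonrf1 (log2 0.49) were the first outside it (adjusted p = 0.0555).

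Across the 24 genes, KO saline and KO ethanol libraries did not overlap in 20 (5.2% of all genes), with overlap in Dusp6, Spred2, Tsc22d3 and Mt1. WT saline and WT ethanol libraries did not overlap in 14 (4.88% of all genes). KO ethanol had the lowest group mean in 16 of the 21 negative genes and WT saline in the other 5. WT ethanol had the highest mean in 15 of the 21 and KO saline in the other 6 (20.1% of all genes; Per1, Klf2, Bdnf, Nfkbia, Rasl11a and Mt1). In 19 of the 21, both the WT ethanol mean and the KO saline mean were above the WT saline mean. These counts use the same libraries as the interaction, and a negative interaction itself favours low WT saline and KO ethanol means. The share over all genes was not counted for the lowest group, for WT ethanol as highest or for the 19 genes. The counts are descriptions.

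The KO exposure test also passed for 7 genes whose interaction did not pass, so a difference between genotypes was not shown for them. They were named after their values were seen. Besides Nr1d1, Nr1d2 and Ddit4 they were Coq10b (log2 -0.51 in KO, interaction -0.56, adjusted p = 0.122), Cldn5, a tight junction protein of brain endothelium (0.67, interaction 0.77, adjusted p = 0.0555), Zfp36l2, an mRNA decay factor (0.73, interaction 0.88, adjusted p = 0.0617) and Xlr4b (4.14, interaction 4.03, adjusted p = 0.111). Xlr4b belongs to a family of near-identical copies, and its counts are uncertain.

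Markers of oligodendrocytes, microglia, Purkinje and granule neurons, brainstem and blood had a wider range in KO ethanol than in the other groups. This did not hold for every class. Molecular layer interneuron markers averaged 5.05 to 5.30 log2 CPM in KO ethanol and 5.09 to 5.53 in WT ethanol. None of the differences below passed the test for a single marker in edgeR. All 20 oligodendrocyte markers had positive interactions (median log2 0.57), where 54% of all genes did. Their summed level was 5133 to 6654 CPM in WT saline, 5277 to 7794 in WT ethanol, 4876 to 5605 in KO saline and 5402 to 15290 in KO ethanol. All 19 microglial markers tested were positive (median 0.47), with sums of 151 to 194 (WT saline), 139 to 202 (WT ethanol), 170 to 186 (KO saline) and 169 to 368 CPM (KO ethanol). All 20 Purkinje markers and all 17 granule neuron markers were negative (medians -0.41 and -0.53), with sums that reached down to 5759 and 3415 CPM in KO ethanol against at least 12140 and 7795 CPM elsewhere. Markers of the deep cerebellar nuclei and brainstem had a median of 2.00 with 13 of 16 positive, and blood markers 1.40 with 8 of 8. In bulk tissue fewer cells of a type and less RNA per cell cannot be told apart. No marker passed the interaction in any of the 15 marker lists by edgeR (0 called), and 37 of their 229 entries (16.2%, against 11.2% of all genes) had an unadjusted p under 0.05. DESeq2, which called 241 of 22441 genes, called 5 of the 229 entries. They were the unipolar brush cell marker Eomes, Siglech of microglia, Ak7 of motile cilia and the endothelial genes Slc2a1 and Cldn5.

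**Figure D4:**
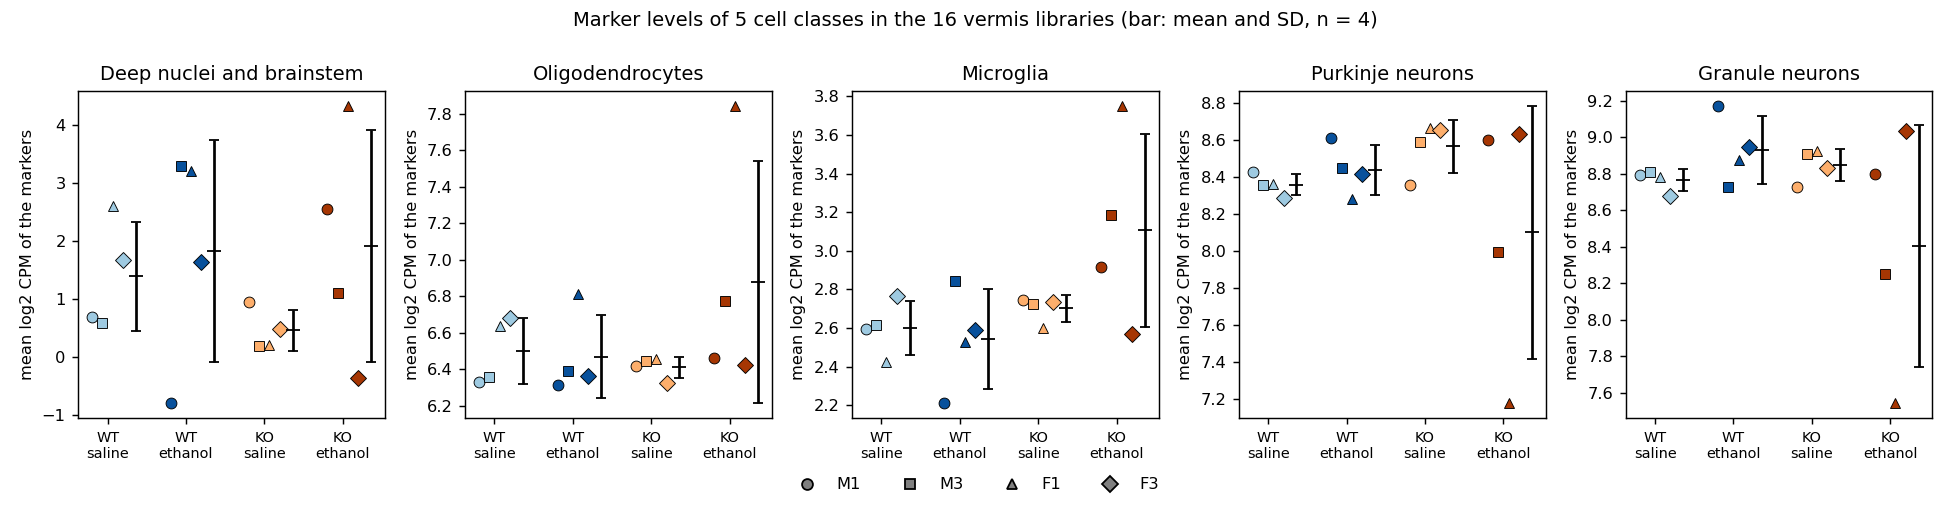
Mean log2 CPM of the markers of 5 cell classes in each vermis library, by group (x axis), with the mean and SD beside each group (n = 4). KO ethanol F1 is highest for brainstem, oligodendrocyte and microglial markers and lowest for Purkinje and granule markers, with M3 next in the last 2, while KO ethanol M1 and F3 lie among the other groups for Purkinje neurons.

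KO ethanol F1 had the highest level of oligodendrocyte, microglial, brainstem and blood markers and the lowest of Purkinje and granule markers. Oligodendrocyte markers averaged 7.84 log2 CPM in F1 and 6.78 in M3, and Purkinje markers 7.18 and 8.0. Brainstem markers averaged 4.33 in F1 and 1.11 in M3, below KO ethanol M1 (2.56) and WT ethanol M3 (3.29), and blood markers 8.37 and 4.20, below KO saline F1 (5.37). Without F1 alone the medians were 0.18 for oligodendrocyte, 0.18 for microglial, -0.20 for Purkinje, -0.25 for granule, 0.68 for brainstem and -1.01 for blood markers. Without F1 and M3 together they were 0.09, -0.03, -0.01, -0.12, 0.18 and -0.97 in the same order. Positive interactions then numbered 11 of 20 oligodendrocyte, 9 of 19 microglial, 9 of 20 Purkinje, 4 of 17 granule, 11 of 17 brainstem and 1 of 8 blood markers, against 50.6% of all genes. Ependyma and choroid plexus markers changed less. Ependyma markers, of low level, had a median of 1.10 with all libraries (13 of 15 positive) and 0.91 without the pair (14 of 16). Choroid plexus markers had medians of 0.62 and 0.46, with 13 of 17 positive in both fits. Without the pair the interaction gave 26 genes, 17 of them among the 24. The 7 lost were Sgk1, Per1, Dusp6, Spred2, Ifrd1, Rasl11a and Slc7a5, with adjusted p from 0.051 to 0.0751, and the glucocorticoid median was -0.85. The glucocorticoid list then held 7 calls, with Klf9 and Cdkn1a among them and Per1 and Sgk1 not, the clock list 2 (Dbp and Ciart) and the activity-regulated list 2 (Bdnf and Klf2). In none of the 24 genes (0) was a KO ethanol library an outlier within its group by Dixon's test. Where M3 and F1 shift together this test can miss both, so the 0 does not show that the 24 were unaffected. With brainstem marker level as a covariate 38 genes passed the interaction. The KO exposure test then passed for 7 genes against 20 in the main fit. The class that passed in KO and not in WT held 7 against 12, and the opposite class 0 against 1. Brainstem markers were lower in M3 than in KO ethanol M1 and WT ethanol M3, so this covariate may not carry the oligodendrocyte and Purkinje shift of M3. Endothelial markers had 10 of 17 positive with a median of 0.06, and sums of 720 to 767 (WT saline), 786 to 883 (WT ethanol), 827 to 878 (KO saline) and 832 to 994 CPM (KO ethanol). None of the 17 endothelial markers passed the interaction (0 called by edgeR, 3 at an unadjusted p under 0.05, 2 by DESeq2). The part of cell makeup in the 24 genes was not tested beyond these fits.

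The number of calls depended on single libraries. Leaving out 1 library gave 3 genes without WT saline M1, 4 without M3, 8 without F1 and 10 without F3. It gave 9 without WT ethanol M1, 30 without M3, 6 without F1 and 14 without F3. It gave 18 without KO saline M1, 5 without M3, 17 without F1 and 7 without F3, and 15 without KO ethanol M1, 17 without M3 and 34 without F1. Without KO ethanol F3, the shallowest library, 168 genes passed (0.732% of 22958), 56 higher and 112 lower, and all 24 were among them. That fit held 10 of the 23 glucocorticoid genes, adding Klf9, Errfi1 and Cdkn1a, and 5 of the 20 clock genes, adding Nr1d1 and Nr1d2. Dbp, Mt2 and Frmd6 passed in all 16 such fits, Kank1 and Map3k6 in 14, Sgk1 and Per1 in 11, Dusp6 and Klf2 in 9, and the other 15 genes in 2 to 8. No gene of the 24 changed the sign of its interaction in any of them. The KO exposure count of 20 became 13 without WT ethanol M3, 9 without KO saline M1, 2 without KO saline M3, 10 without KO saline F1, 5 without KO saline F3, 8 without KO ethanol M1, 2 without KO ethanol M3 and 616 without KO ethanol F3. The 12 genes that passed in KO and not in WT became 2 without WT saline M1, KO saline M3 or KO ethanol M3, 4 without WT saline M3 or KO saline F3, 5 without WT ethanol F1, 7 without WT ethanol F3, 6 without KO saline M1 or KO ethanol M1, and 133 without KO ethanol F3.

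**Figure D5:**
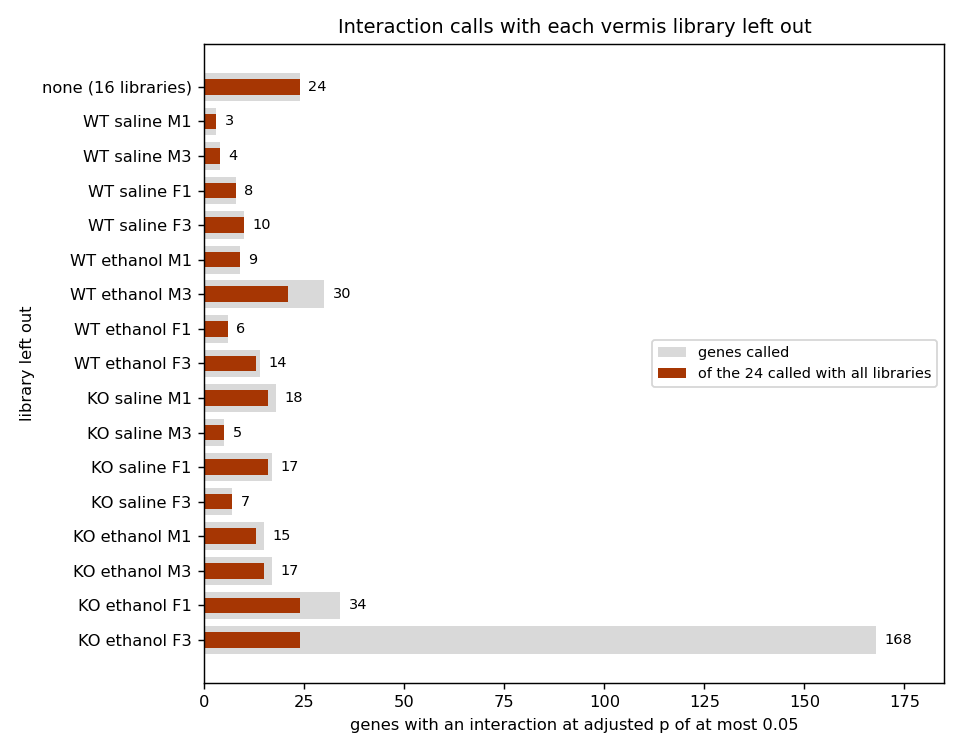
Number of genes with an interaction at an adjusted p of at most 0.05 when each vermis library is left out (grey), and how many of them are among the 24 called with all 16 libraries (brown). The count runs from 3 without WT saline M1 to 168 without KO ethanol F3.

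Pathway lists other than those above held few calls or none. Nfkbia was the single call among 19 innate and interferon genes tested (median log2 0.22). The other 20 pathway lists held 0 calls by edgeR and 4 by DESeq2, with medians from -0.16 to 0.39 and 56 of 664 entries (8.4%, against 11.2% of all genes) at an unadjusted p under 0.05. Of 23 genes of acetyl-CoA and acetate metabolism, the pathway of the deleted enzyme, 0 passed and 4 had an unadjusted p under 0.05, with a median of 0.16. The mitochondrial paralog Acss1 had an interaction of log2 0.23 (adjusted p = 0.558), and Acly, the other main source of acetyl-CoA outside mitochondria, log2 0.16 (adjusted p = 0.68). Of 32 histone acetyltransferases and deacetylases 0 passed and 2 had an unadjusted p under 0.05 (median -0.02). Of 31 enzymes of DNA and histone methylation 29 were negative with a median of -0.16, 0 passed and 4 had an unadjusted p under 0.05, and without KO ethanol M3 and F1 the median was -0.05. Of 79 cytosolic ribosomal proteins 71 were positive with a median of 0.13, 0 passed and 6 had an unadjusted p under 0.05, and without that pair the median was -0.01. Over all genes 54% were positive with all libraries. DESeq2 called 241 of 22441 genes tested, 152 of them lower. It called 11 of 23 glucocorticoid, 10 of 20 clock and 5 of 36 activity-regulated genes, all lower, and these counts are descriptions.

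The same comparison in the hippocampus of the same mice passed for 41 of 23394 genes (0.175%, and 2326 reached an unadjusted p under 0.05). Of the 24 vermis genes, 6 also passed there, which is 25.0% of the vermis calls and 14.6% of the hippocampal ones. They were Map3k6 (log2 -2.00 in vermis and -1.89 in hippocampus), Sgk1 (-1.22 and -1.18), Per1 (-1.40 and -0.84), Nfkbia (-0.70 and -0.66), Tsc22d3 (-0.68 and -0.91) and Slc7a5 (-0.57 and -0.68). Among the rest, Dbp stood at -0.90 and -0.74 (adjusted p = 0.0725 in hippocampus), Ciart at -0.83 and -0.90 (0.107) and Klf15 at -0.73 and -0.62 (0.0593). Others had hippocampal values nearer 0, with Frmd6 at -1.37 and -0.11, Dusp6 at -1.0 and 0.11, Bdnf at -0.87 and 0.06, Kank1 at 0.55 and 0.11, and Mt2 at -1.21 and -0.39.

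The difference between the regions was itself tested over 24458 genes with each mouse as a block. It passed for 2 genes (0.00818%), Slc2a13, a proton and inositol cotransporter (vermis minus hippocampus log2 1.33), and Polr3e, a subunit of RNA polymerase III (0.62), and 1806 genes had an unadjusted p under 0.05. Among the 24 genes 0 passed in edgeR, while DESeq2, with 37 calls in all, called 5 of them (Rasl11a, Dusp6, Mt2, Spred2 and Frmd6). In edgeR the lowest adjusted p was 0.20 for Frmd6 (log2 -1.28 ± 0.22, unadjusted p = 3.27e-05). An unadjusted p under 0.05 was reached by 12 of the 24 (1806 of all 24458 genes), among them Rasl11a (-1.48), Dusp6 (-1.11), Spred2 (-0.95), Bdnf (-0.93), Adamts1 (0.82) and Mt2 (-0.81). The region difference contains the vermis interaction that selected the 24, which favours small p-values among them. The 12, and the 5 called by DESeq2, are therefore descriptions. For the 6 shared calls the differences were -0.56 ± 0.17 for Per1 (unadjusted p = 0.0039), -0.13 ± 0.45 for Map3k6, -0.02 ± 0.18 for Sgk1, -0.03 ± 0.12 for Nfkbia, 0.19 ± 0.17 for Tsc22d3 and 0.10 ± 0.12 for Slc7a5. The edgeR fit therefore showed a difference between regions for none of the 24 (0). With a mouse left out it called 0 to 3 genes, and the hippocampal count of 41 fell to between 0 and 24 with any library left out. A difference of the interaction between females and males passed for 0 of 22441 genes by edgeR, while 484 reached an unadjusted p under 0.05, 1 of the 24 among them. It was not run in DESeq2.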

How the data were processed

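PolyA RNA libraries were made from 10 ng of RNA, per the labels. The deposited table gives unnormalized counts for 56415 genes, and the submitters' processing notes name bcl2fastq, cutadapt 5.0, STAR 2.7.10a, featureCounts 2.0.6, DESeq2 and GRCm39. Whether counting used strand is not given in the sources used here, so an overlapping or antisense gene can add reads. Of the low counts 85.0% to 91.1% were even, so both mates of a pair appear to add a count. Gene coordinates are the first exon listed in the deposited table.

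The 16 vermis libraries were fitted in edgeR 4.0.16 (R 4.3.3, limma 3.58.1) with TMM scaling, filterByExpr over the 4 groups, sex as a covariate and robust quasi-likelihood F-tests. Benjamini-Hochberg adjustment ran over all genes tested, at 0.05, and the groups shared 1 estimate of the spread. The region difference used 32 libraries with mouse as a block. For Acss2 an exact permutation test was run on log2 CPM (prior count of 2). Intervals are 95% intervals of the fit. Figures used Python 3.11.15 and matplotlib 3.10.9. On simulated data with 22116 genes the interaction test recovered 18% of 100 genes changed 1.5-fold and 56% of 100 changed 2-fold, and 2 of 76 calls were false. Counts were drawn gene by gene around 1 mean per gene, with changes placed in KO ethanol in genes of at least 1 CPM. They held no shift shared between genes, so the false calls do not measure how single libraries move the real calls. All 16 libraries matched their labelled sex. The 24 pairs of libraries within groups differed by more than sampling noise (lowest chi-square over its degrees of freedom 9.05).

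The genes, the 40 lists (15 of markers, 25 of pathways) and the tests were chosen with earlier results of these data known. Named genes are the 15 of smallest p in each direction that passed at a mean of 1 CPM or more, up to 4 of smallest p in each list described, and Acss2. Other genes were named after their values were seen. Lists are given by counts and medians, with no set test. The alternatives were DESeq2 1.42.0, RLE scaling, no filter on low counts, a minimum mean of 1 CPM, no sex term, a replicate block, sex by group cells, protein-coding genes alone, and each library left out. Chosen after seeing the data were a transcript length offset (lowess span 0.3), brainstem markers as a covariate, KO ethanol M3 and F1 left out together, and a threshold of 0.10.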

Additional observations from a re-analysis of the deposited data

Results flagged for a closer look

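A library was far from the other 3 of its group by Dixon's test, in 4 of 96 groups of the 24 genes and in 5 of 60 groups of the marker lists, and chance gives about 1 in 20. Kank1 was low in WT ethanol M3 (23.9 CPM, others 24.7 to 24.9) and in KO saline M3 (22.4 CPM, others 24.7 to 25.0). Mt1 was high in WT ethanol F1 (183 CPM, others 151 to 155), and Slc7a5 in WT ethanol M3 (118 CPM, others 109.9 to 111). Among marker lists in mean log2 CPM, oligodendrocytes were high in WT ethanol F1 (6.81), pericytes and smooth muscle in WT ethanol M3 (3.21), choroid plexus in KO saline F3 (1.23) and ependyma in WT saline F3 (1.73), and microglia were low in KO saline F1 (2.60).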

How the results depend on the processing

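Of 648 values of the 24 genes under other settings, 414 kept their side of the threshold, 234 lost it and 0 changed sign. The interaction gave 241 genes with DESeq2 (89 higher, 152 lower), 53 without the filter, 47 at a minimum mean of 1 CPM, 41 without the sex term, 7 with sex by group cells, 38 with the brainstem covariate and 57 at a threshold of 0.10, with 3 to 168 when 1 library was left out. In these settings the genes with estimated effects of opposite sign numbered 240 (DESeq2), 53, 47, 41, 7 and 37 (brainstem covariate), with 3 to 168 left-out. The WT exposure test gave 17 genes (DESeq2), 4 (no filter), 0 (no sex term, sex by group cells or length offset) and 4 (without KO ethanol M3 and F1), with 0 to 2 left-out. The KO exposure test gave 213 (DESeq2), 52 (no filter), 8 (sex by group cells), 31 (protein-coding genes), 7 (brainstem covariate) and 13 (without that pair), with 2 to 616 left-out. The opposite class held 4 (DESeq2), 2 (no filter), 0 (no sex term, sex by group cells, length offset or brainstem covariate) and 2 (without that pair, Frmd6 and Tsc22d3), with 0 to 2 left-out. The class that passed in KO and not in WT held 106 (DESeq2), 30 (no filter), 6 (sex by group cells) and 7 (brainstem covariate), with 2 to 133 left-out. The reverse class held 11 (DESeq2), 2 (no filter), 1 (brainstem covariate) and 2 (without that pair), with 0 to 1 left-out. Neither test passed in 120 (DESeq2), 19 (no filter), 29 (minimum mean), 28 (no sex term), 1 (sex by group cells), 24 (length offset) and 30 (brainstem covariate), with 0 to 34 left-out. The hippocampal interaction gave 272 (DESeq2), 688 (no filter), 23 (no sex term) and 14 (sex by group cells), with 0 to 24 left-out. The region difference gave 1 (RLE scaling) and 37 (DESeq2), with 0 to 3 left-out. The cause of these changes was not tested. With a replicate block the interaction gave 6 genes (all 6 of opposite sign), WT exposure 0, KO exposure 7, the opposite class 0, the KO class 3 and neither 3. Whether replicate labels mark a shared litter or day is not given. Of 24 same-label pairs 7 correlated over 0.1, and 0 libraries correlated best with their own label. The labels were not taken as a pairing, though these values cannot exclude one. Depth limits genes of low level, since 1 CPM is 22.9 counts in the shallowest library.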
